A study of Mus musculus with 14 samples.

Results

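Immediate early genes are genes that cells transcribe at once when a signal arrives, before any new protein has been made. The 10 described here are Fos, Fosb, Jun, Junb, Egr1, Egr2, Egr3, Atf3, Ier2 and Klf6. They were chosen by name, and every probe set that the platform annotation gives exactly 1 of these symbols was taken, which gave 17 of the 45101 probe sets on the array. The 10 are among 18193 genes with such a probe set, of which 12985 passed a filter on low signal and were tested. All members but Fosb passed the filter, so 9 were tested.

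Total RNA was taken from homogenized lungs of mice of the C57BL/6 background aged 20 weeks and measured on 1-colour Affymetrix arrays, 1 array a sample. The groups were mice lacking the tetraspanin CD151 (CD151KO, 5 arrays, numbered 1 to 5), mice lacking the tetraspanin CD9 (CD9KO, 5 arrays, numbered 1 to 5) and wild type mice (4 arrays, numbered 1, 3, 4 and 5), and the labels give no treatment. The sources used here do not say how the alleles were made or whether they act in all cells. Nothing in the labels states that each sample was a different mouse, so the p-values cover the spread among these samples only, and that spread may be technical.

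The wave of immediate early transcription is started by kinases such as ERK and p38, which act on factors already bound at the promoters, SRF with its ELK partners and CREB. The products are mostly transcription factors: FOS and JUN proteins pair through leucine zippers to form AP-1, EGR proteins bind GC-rich sites through zinc fingers, and ATF3 belongs to the ATF/CREB family. Their messages are short-lived, and in lung as in other tissues they are known to respond within minutes to growth factors, stretch, injury and handling of the tissue.

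Promoter sequences are shown for Fos, Junb and Atf3, whose signals were high on the same arrays, and for Klf6, whose signal followed another pattern. Each runs 5′ to 3′ on the gene's strand, from 250 bases before to 50 after the RefSeq start, and capitals mark TGACG or its reverse complement CGTCA, the core of the site that CREB and ATF proteins bind.
Fos (GRCm38.p6, chr12:85473640-85473939, plus strand): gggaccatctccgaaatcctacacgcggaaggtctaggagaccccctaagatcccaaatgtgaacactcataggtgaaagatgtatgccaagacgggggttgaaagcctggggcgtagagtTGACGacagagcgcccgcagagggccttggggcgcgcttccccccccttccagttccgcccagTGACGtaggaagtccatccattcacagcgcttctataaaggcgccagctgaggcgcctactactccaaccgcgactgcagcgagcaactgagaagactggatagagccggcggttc
Junb (GRCm38.p6, chr8:84978699-84978998, minus strand): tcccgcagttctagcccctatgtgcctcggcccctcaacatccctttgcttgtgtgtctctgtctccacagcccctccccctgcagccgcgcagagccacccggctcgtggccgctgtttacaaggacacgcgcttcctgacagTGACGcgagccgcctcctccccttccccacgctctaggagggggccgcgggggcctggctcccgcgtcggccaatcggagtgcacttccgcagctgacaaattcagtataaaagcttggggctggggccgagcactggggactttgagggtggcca
Atf3 (GRCm38.p6, chr1:191183284-191183583, minus strand): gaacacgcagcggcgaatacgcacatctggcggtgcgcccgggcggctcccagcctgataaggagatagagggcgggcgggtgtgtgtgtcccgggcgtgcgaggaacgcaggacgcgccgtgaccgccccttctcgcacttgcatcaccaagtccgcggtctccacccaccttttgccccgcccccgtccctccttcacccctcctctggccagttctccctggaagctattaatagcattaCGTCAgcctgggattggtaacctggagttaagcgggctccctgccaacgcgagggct
Klf6 (GRCm38.p6, chr13:5861239-5861538, plus strand): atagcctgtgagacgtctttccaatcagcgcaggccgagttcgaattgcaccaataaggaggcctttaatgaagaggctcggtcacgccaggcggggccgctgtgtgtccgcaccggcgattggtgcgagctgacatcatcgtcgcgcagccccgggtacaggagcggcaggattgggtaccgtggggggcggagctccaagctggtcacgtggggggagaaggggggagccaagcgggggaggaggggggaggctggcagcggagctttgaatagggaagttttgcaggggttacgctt

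The RefSeq table of build GRCm38.p6 held such a window for 7 of the 10 members, with several starts for Egr2. A member was counted when any of its windows matched, while the percentages below are shares of single windows. The counts and percentages are therefore in unlike units, which matters for Egr2. TGACG on either strand was found in 5 of the 7 (Fos, Fosb, Junb, Egr2 and Atf3) and in 20.8% of all 32851 windows. Fos held it at -129 and -66 and Junb at -106, counted from the annotated start. Egr2 and Fosb, which also held TGACG, did not share the array pattern of Fos, Junb and Atf3. Egr1, Egr3 and Ier2 had no window. Whether TGACG goes with that pattern was not tested. The full palindrome TGACGTCA, which contains TGACG, was found in 0 of the 7 and in 1.79% of all windows, and the AP-1 site TGANTCA in 0 of the 7 and in 7.81%. The CArG box, which SRF binds, was found in 1 of the 7, Egr2, and in 1.63% of all windows. The TATA sequence TATAAA was found in Fos and Junb and in 13.6% of all windows. It began at -33 in Fos but at 0, on the annotated start itself, in Junb. A match is only a run of letters, and a window without one shows no more than that the letters are not in those bases.

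The targeted gene was low in the group labelled for it. The Cd151 signal was 1027 to 1072 in CD151KO, 4867 to 5215 in CD9KO and 4991 to 5832 in wild type, and that of Cd9 was 7861 to 8501 in CD151KO, 614 to 749 in CD9KO and 7998 to 8163 in wild type. Lung markers were well expressed on every array: the lowest signal of any of 5 alveolar type 2 markers was 1546, of 6 alveolar type 1 markers 1121 and of 4 club cell markers 9455. Array medians lay between 84.1 and 86.2. The number 1 array of CD151KO and the number 1 array of wild type stood apart from the other 12: of all genes tested, 8.24% were higher on both than on any other array and 7.95% were lower. The members' main differences are therefore also given without these 2 arrays. Signals of different probe sets cannot be set against each other, so values are compared only within a probe set.

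Most of the immediate early genes were high on those 2 arrays. Of the 9 tested members 5 (Fos, Junb, Egr1, Atf3 and Ier2) were higher on both number 1 arrays than on each of the other 12, against the 8.24% of all genes, and 0 were lower on both. The second probe sets of Jun and of Egr3 showed the same order, making 7 of 17 probe sets. Junb met this narrowly, with 309 on wild type number 1 against 307 on CD9KO number 2. Atf3 did too, with 317 on CD151KO number 1 against 312 on wild type number 3.

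Egr1, a zinc finger factor induced by growth factors and injury, varied most within groups among the tested members, each taken in its tested probe set. Its signal was 2505, 796, 564, 567 and 720 in CD151KO numbers 1 to 5, 853, 647, 473, 487 and 778 in CD9KO numbers 1 to 5, and 2160, 868, 677 and 566 in wild type numbers 1, 3, 4 and 5. The number 1 arrays stood 3.76-fold (CD151KO) and 3.07-fold (wild type) above the mean of the other arrays of their group on the log2(signal + 16) scale, on which all folds here are given, while the other 12 arrays of the 3 groups overlapped. Fos, the founding AP-1 subunit, had 2878, 1694, 1343, 1443 and 1653 in CD151KO, 1822, 1532, 1079, 1544 and 1724 in CD9KO, and 2076, 1715, 1277 and 1033 in wild type. Its number 1 arrays were 1.88-fold and 1.57-fold above the others of CD151KO and wild type. Outside them the highest Fos signal was that of CD9KO number 1 and the lowest that of wild type number 5, so each of these groups spanned much of the range.

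Ier2, which codes for a small nuclear protein of the early response, had 1752, 1239, 1021, 1004 and 1022 in CD151KO, 947, 1041, 901, 768 and 986 in CD9KO, and 1453, 1204, 1160 and 1015 in wild type. Atf3, a stress-induced factor that mostly represses as a homodimer, had 317, 286, 227, 183 and 195 in CD151KO, 164, 214, 160, 161 and 190 in CD9KO, and 390, 312, 231 and 191 in wild type. For both genes the number 1 arrays of CD151KO and wild type were the top pair, CD151KO number 2 and wild type number 3 came next, and CD9KO held the lowest value.

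Junb, a partner of FOS proteins with weaker activity than JUN, had 407 on the number 1 array of CD151KO and 233 to 260 on its other 4, 233 to 307 in CD9KO, and 309 on the number 1 array of wild type and 256 to 271 on its other 3. Jun, the main partner of FOS, moved less. In the probe set that stood for the gene, the one with the highest mean, its signal was 3572, 3106, 2678, 2737 and 2618 in CD151KO, 2790 to 3160 in CD9KO and 2839 to 3077 in wild type, so that CD151KO number 1 was the highest array and wild type number 1 only the fourth. In its second probe set both number 1 arrays were on top, with 2172 (CD151KO) and 1966 (wild type) against 1556 to 1859 on the other 12.

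**Figure D1:**
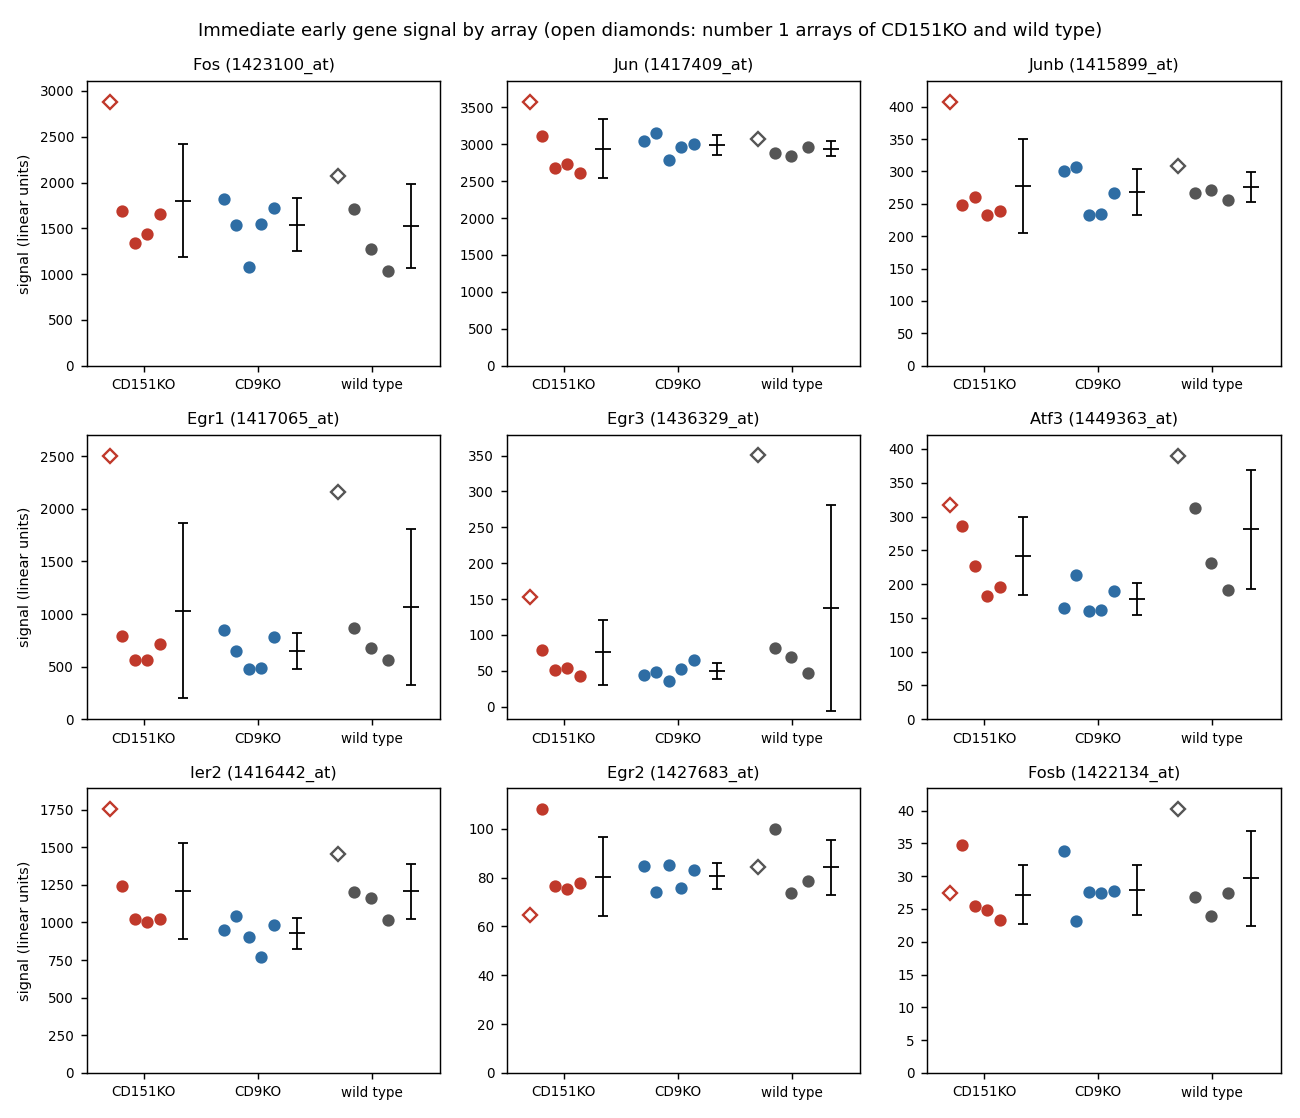
Signal (linear units) of 9 members on each of 14 arrays by group. Circles are arrays, open diamonds the number 1 arrays of CD151KO and wild type, and black bars the mean ± SD (n = 5, 5 and 4). In Fos, Junb, Egr1, Egr3 (the probe set 1436329_at), Atf3 and Ier2 both diamonds lie above all 12 circles. In Jun (1417409_at), Egr2 and Fosb they do not. The axis of Egr3 runs below 0 only to show its error bar.

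The probe sets of Egr3 disagreed. EGR3, like EGR2, is a close relative of EGR1. The probe set 1436329_at followed the pattern of Egr1, with 153, 79.1, 51.5, 53.3 and 42.7 in CD151KO, 44.5, 48.7, 35.7, 52.0 and 65.7 in CD9KO, and 351, 81.4, 69.4 and 47.5 in wild type. The probe set 1421486_at, which had the slightly higher mean on the log2 scale and so stood for the gene in the test, had 70.6, 68.3, 72.0, 68.1 and 63.9 in CD151KO, 81.7, 76.4, 73.0, 80.6 and 77.8 in CD9KO, and 57.7, 66.4, 71.3 and 71.3 in wild type. On that one the number 1 array of wild type was the lowest of all, and CD9KO lay above both other groups. The sources used here do not say which transcripts each detects.

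Egr2 and Fosb gave weak signals without the pattern. The probe set that stood for Egr2 had 64.7 to 108 in CD151KO, 74.2 to 85.2 in CD9KO and 73.8 to 100 in wild type, with the number 1 array of CD151KO the lowest of all 14, and the other probe set of Egr2 had its lowest value, 47.3, on the number 1 array of wild type. Fosb, a FOS relative known from activated neurons, was below the filter (a signal of about 53.4) on every array, with 23.3 to 34.8 in CD151KO, 23.1 to 33.8 in CD9KO and 24.0 to 40.2 in wild type. Its highest value was again on the number 1 array of wild type.

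**Figure D2:**
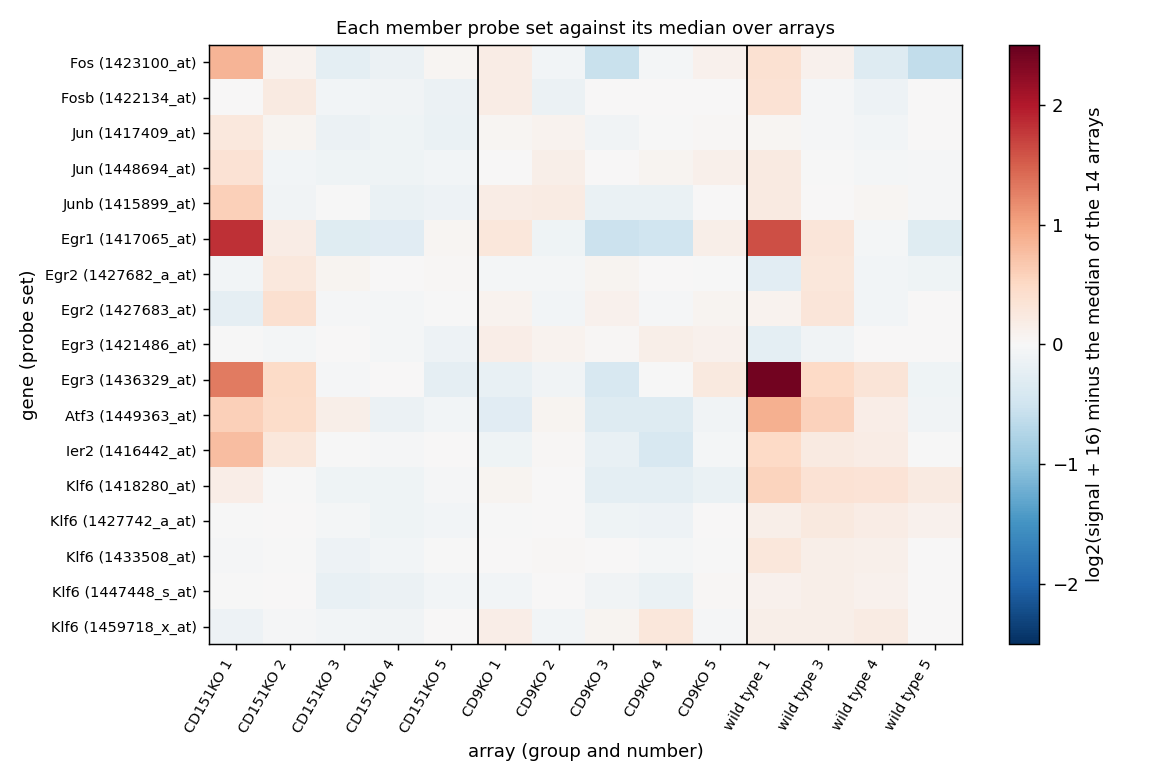
Each of the 17 probe sets of the 10 genes (rows) on each of 14 arrays (columns, by group). Colour is log2(signal + 16) minus the probe set's median over the 14 arrays. The columns of CD151KO 1 and wild type 1 are red for Egr1, Egr3 (1436329_at), Fos, Junb, Atf3 and Ier2, and the 1418280_at row of Klf6 is red across the 4 wild type arrays.

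Averaged over the 9 tested members, the log2 level was 9.59, 9.223, 8.998, 8.961 and 9.029 in CD151KO numbers 1 to 5, 9.138, 9.106, 8.886, 8.924 and 9.112 in CD9KO numbers 1 to 5, and 9.495, 9.25, 9.08 and 8.962 in wild type numbers 1, 3, 4 and 5. Other genes moved on the same 2 arrays. Of 11 heat shock genes, which code for chaperones, 8 were lower on both number 1 arrays than on the other 12, where 7.95% of all genes were. Their summed signal was 41149 (CD151KO) and 31037 (wild type) against 47907 to 68682. Of 7 measured markers of B and plasma cells (8 listed) 4 were higher on both, where 8.24% of all genes were. The sum was 13458 (CD151KO) and 12601 (wild type) against 4547 to 13166. The 5 measured macrophage markers (6 listed) summed to 8831 (CD151KO) and 9186 (wild type) against 10127 to 13573, and 1 of the 5 was lower on both. Of 6 measured neutrophil markers (10 listed) 0 were higher and 0 were lower on both. Their sum was 10980 (CD151KO) and 5723 (wild type) against 1895 to 9667, so that of wild type number 1 lay within the range of the others. The lowest signal of any of these markers was 48.0, so none was at 0. The part of these genes in the level of the members was not tested, and in a whole tissue fewer cells of a type and less RNA per cell cannot be told apart.

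The 5 other genes most like the mean of the members over the 14 arrays were Adamts1, Ppox, Il17ra, Nr4a1 and Acad9. Nr4a1 is itself an immediate early gene, an orphan nuclear receptor, with a signal of 1889 (CD151KO) and 2599 (wild type) on the number 1 arrays and 424 to 880 on the other 12. Adamts1, a secreted protease gene, had 1636 (CD151KO) and 1724 (wild type) there and 786 to 1411 on the others. Its Pearson correlation with the members' mean was 0.922 over 14 arrays and 0.853 over the 12 others, and that of the other 4 was 0.906 to 0.916 over 14 and 0.674 to 0.749 over 12. These are the highest of 12985 genes, picked for their likeness.

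Within their groups 7 of the 9 tested members varied more than the median gene. Klf6 and Egr3, each in the probe set tested, varied less. The residual SD of Egr1 was 0.727 on the log2 scale, 8.24 times the median gene's 0.0882 and above 99.9% of genes tested. Fos (0.388), Atf3 (0.313), Ier2 (0.252), Junb (0.227) and Egr2 (0.167) exceeded 99.2, 98.5, 97.1, 96.2 and 90.2% of genes. Without the 2 number 1 arrays Egr1 still exceeded 99.1% of genes, Fos 98.6% and Atf3 98.1%, with SDs of 0.321, 0.274 and 0.247. Jun exceeded 77.4% with all arrays and 50.5% without them. The tested probe set of Egr3 had an SD of 0.0754, which exceeded 35.9% of genes, and Klf6 one of 0.0645, which exceeded 22.9%. The other probe set of Egr3, 1436329_at, is not in this ranking and varied widely. In wild type its highest array was 7.38 times its lowest, against 3.82 times for Egr1.

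**Figure D3:**
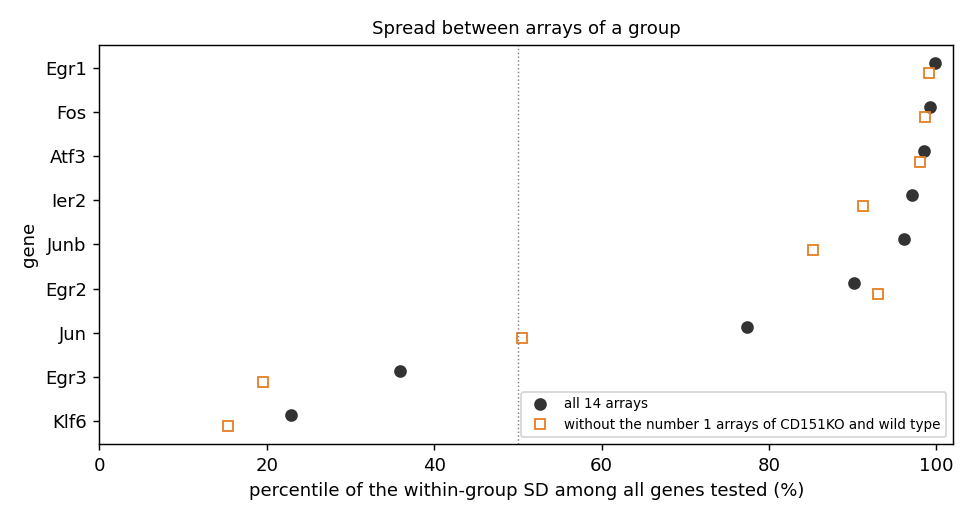
Percentile of the SD between arrays of a group (residual SD of the linear model, log2 scale) of 9 members among all 12985 genes tested. Filled circles use 14 arrays and open squares leave out the number 1 arrays of CD151KO and wild type. Egr1, Fos and Atf3 lie above 98% either way, and Klf6 and Egr3 (1421486_at) below 40%.

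In CD151KO against wild type, the comparison that asks what the lung expresses differently without CD151, 0 of 9 members passed limma's test at an adjusted p under 0.05, where 0.778% of all 12985 genes passed. Their median log2 difference was -0.02, against 0.01 for all genes, and 7 of 9 differences were negative. With single arrays left out this median ran between -0.159 (without CD151KO 1) and 0.032 (without CD151KO 4), so it had no stable sign. At an unadjusted p under 0.05 there was 1 member, Klf6, and 11.1% of all genes. Egr1 averaged 1030 ± 830 in CD151KO (SD, n = 5) and 1068 ± 739 in wild type (n = 4), a log2 difference of -0.10 (SE 0.42, limma adjusted p = 0.955), and without the number 1 arrays 662 ± 115 (n = 4) and 703 ± 153 (n = 3). Fos averaged 1803 ± 619 in CD151KO and 1525 ± 463 in wild type (log2 0.23, SE 0.22, limma adjusted p = 0.762), with a log2 difference of 0.22 without the number 1 arrays. Each of these differences was smaller than the spread between arrays. Groups did not overlap for 1 of 9 members (Klf6) and for 4.54% of all genes.

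In CD9KO against wild type, which asks the same for CD9, 0 of 9 members passed and 5.51% of all genes did. At an unadjusted p under 0.05 there were 4 of 9 (Egr3, Klf6, Atf3 and Ier2) and 25.4% of all genes, and the median log2 difference was -0.05 against 0.0037 for all genes. Atf3 averaged 178 ± 23.5 in CD9KO (n = 5) and 281 ± 88.4 in wild type (n = 4), a log2 difference of -0.58 (SE 0.18, limma adjusted p = 0.0701), and the groups overlapped between 191 and 214. Ier2 averaged 928 ± 103 in CD9KO and 1208 ± 182 in wild type (log2 -0.37, SE 0.15, limma adjusted p = 0.131). Without the number 1 arrays these log2 differences were -0.41 and -0.28 (limma adjusted p = 0.143 and 0.114). Leaving out wild type 5 brought Atf3 past the threshold (limma adjusted p = 0.0327), and leaving out CD151KO 1 brought Ier2 past it (0.0442). Egr1 averaged 647 ± 170 in CD9KO and 1068 ± 739 in wild type (log2 -0.54, SE 0.42, limma adjusted p = 0.431), and its log2 difference was -0.13 without the number 1 arrays. Egr3 did not overlap between the groups in the probe set tested (log2 0.19, SE 0.05, limma adjusted p = 0.0561) but had a log2 difference of -0.87 in the other (limma adjusted p = 0.189 in the fit of every probe set), so the probe sets gave it no common direction. Without the number 1 arrays the first was 0.13 (limma adjusted p = 0.147) and the second -0.32. It was the 1 of 9 members without overlap, against 11.8% of all genes.

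Between the knockouts, CD151KO against CD9KO, 0 of 9 members passed and 10.1% of all genes did, with 3 of 9 (Egr3, Ier2 and Atf3) and 27.6% at an unadjusted p under 0.05. The median log2 difference was 0.03 against 0.0016 for all genes. Atf3 averaged 242 ± 57.9 in CD151KO and 178 ± 23.5 in CD9KO (log2 0.39, SE 0.17, limma adjusted p = 0.156), and Ier2 1208 ± 319 in CD151KO and 928 ± 103 in CD9KO (log2 0.35, SE 0.14, limma adjusted p = 0.120). Without the number 1 arrays these log2 differences were 0.29 and 0.21 (limma adjusted p = 0.202 and 0.145). The 1 of 9 members without overlap was Egr3, lower in CD151KO in the probe set tested (log2 -0.15, SE 0.05, limma adjusted p = 0.0759), against 10.6% of all genes. That difference passed without wild type 1 (limma adjusted p = 0.0284) and without both number 1 arrays (log2 -0.16, limma adjusted p = 0.0443), while the other probe set had a log2 difference of 0.15. The second probe set of Jun also passed without them in the fit of every probe set, with 1583 ± 22.3 in CD151KO (n = 4) and 1772 ± 79.9 in CD9KO (n = 5) (log2 -0.16, limma adjusted p = 0.0161), and missed with all arrays (log2 -0.07, adjusted p = 0.632). The probe set that stood for Jun did not pass without the number 1 arrays (log2 -0.10, limma adjusted p = 0.183). Neutrophil markers summed to 3664 to 10980 in CD151KO, 1895 to 2904 in CD9KO and 2488 to 5723 in wild type, and 6 fibroblast markers to 14839 to 16037 in CD151KO, 11742 to 14472 in CD9KO and 12312 to 13957 in wild type. Their part in these differences was not tested. The 3 comparisons share arrays in pairs and are not independent.

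**Figure D4:**
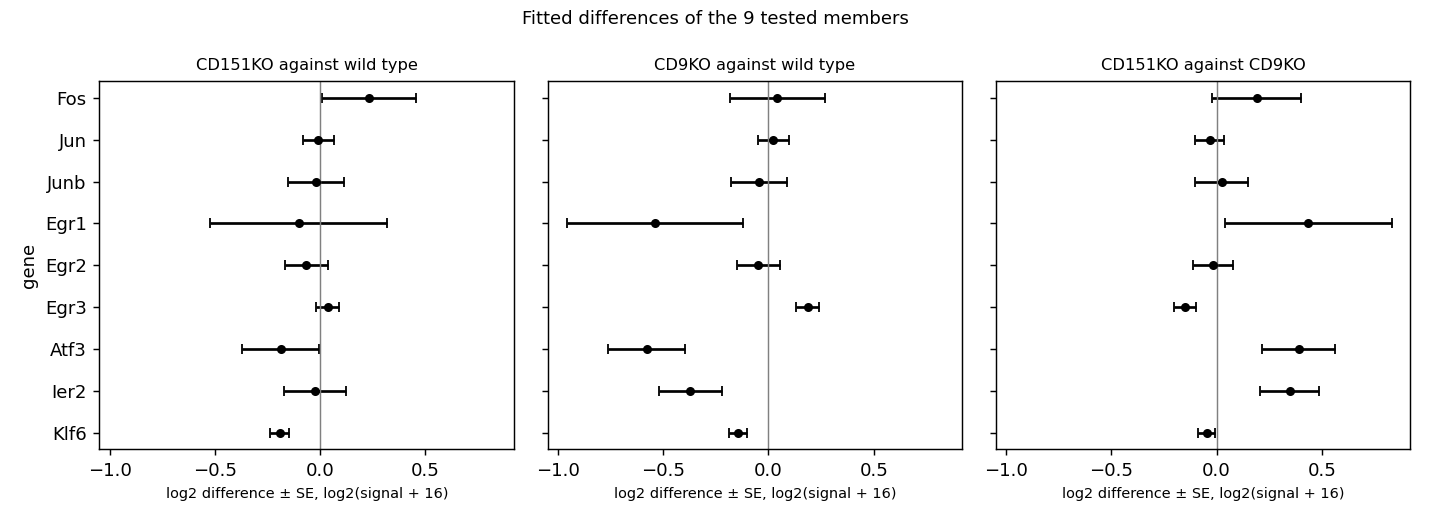
Fitted log2 difference ± SE (limma, log2(signal + 16)) of the 9 tested members in the 3 comparisons. The widest bars are those of Egr1 and the narrowest those of Klf6 and Egr3 (1421486_at). The differences of Klf6 are -0.19 and -0.15 in CD151KO and CD9KO against wild type. No member passed at an adjusted p under 0.05.

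Klf6 was the 1 member with probe sets that passed against wild type, in the fit of every probe set, and it did not separate the knockouts from each other. KLF6 is a zinc finger factor of the Krüppel-like family, known from injured rat liver, where it is induced in stellate cells. Of its 5 probe sets, all 5 were lower in CD151KO than in wild type and all 5 were lower in CD9KO than in wild type. The probe set 1418280_at had 1086, 963, 898, 898 and 957 in CD151KO, 1022, 981, 819, 814 and 859 in CD9KO, and 1430, 1253, 1242 and 1133 in wild type. Every knockout array lay below every wild type array. In the fit of all 22951 probe sets above the filter it fell by 0.39 on the log2 scale in CD151KO (1.31-fold, limma adjusted p = 0.0354) and by 0.49 in CD9KO (1.4-fold, limma adjusted p = 0.0094), both against wild type. The probe set 1427742_a_at had 1789, 1819, 1748, 1689 and 1725 in CD151KO, 1802, 1823, 1687, 1646 and 1827 in CD9KO, and 2007, 2154, 2071 and 1949 in wild type, again without overlap. It fell 1.16-fold in CD151KO (log2 -0.22, limma adjusted p = 0.0267) and 1.16-fold in CD9KO (log2 -0.22, limma adjusted p = 0.0122).

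The other 3 probe sets of Klf6 did not pass. The one that stood for the gene, 1433508_at, had 2099, 2141, 1964, 2064 and 2124 in CD151KO, 2159, 2183, 2164, 2087 and 2144 in CD9KO, and 2606, 2386, 2356 and 2175 in wild type. Its log2 difference in the test of genes was -0.19 in CD151KO (SE 0.04, limma adjusted p = 0.0575) and -0.15 in CD9KO (SE 0.04, limma adjusted p = 0.0605). Without the number 1 arrays these were -0.15 and -0.10 (limma adjusted p = 0.131 and 0.150), while without wild type 5 both passed (-0.23 and -0.19, limma adjusted p = 0.0273 and 0.0219). The probe sets 1447448_s_at and 1459718_x_at carry the same accession and may share a target. They had log2 differences of -0.17 and -0.19 in CD151KO and of -0.14 and -0.04 in CD9KO. In all, 2 of 16 member probe sets above the filter passed in each comparison against wild type, both of Klf6, against 0.627% of all probe sets in CD151KO and 6.78% in CD9KO, and 0 passed between the knockouts. Both comparisons use the same 4 wild type arrays, so they are not independent.

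Without the number 1 arrays the probe set 1418280_at averaged 929 ± 36.1 in CD151KO (n = 4), 899 ± 96.2 in CD9KO (n = 5) and 1209 ± 66.3 in wild type (n = 3). The falls in CD9KO still passed (limma adjusted p = 0.0147 for 1418280_at and 0.0196 for 1427742_a_at), and the differences in CD151KO, of -0.37 and -0.24, did not (limma adjusted p = 0.0567 and 0.0597). The falls in CD9KO passed under 25 of 25 alternatives, each array left out included (adjusted p up to 0.0331 and 0.0410), whereas the calls in CD151KO ended without wild type 3 (0.0834 and 0.0772), wild type 4 (0.110 and 0.0980) or CD151KO 3 (0.0938 and 0.0589), 4 (0.0934 and 0.0667) or 5 (0.0821 and 0.0675). For 1418280_at the call in CD151KO also ended without wild type 1 (0.0880), CD151KO 2 (0.0632) or CD9KO 5 (0.0521), and when only CD151KO and wild type were fitted (0.0537). Where these calls were lost, the log2 difference was -0.33 to -0.40 for 1418280_at and -0.19 to -0.24 for 1427742_a_at. Markers of smooth muscle summed to 7685 to 8949 in CD151KO, 8309 to 9813 in CD9KO and 6783 to 7596 in wild type (6 of 6 measured), without overlap between either knockout and wild type. Of these 6 markers 1 rose in CD151KO and 4 rose in CD9KO against wild type, where 0.778% and 5.51% of all genes passed in either direction. The 6 cardiac muscle markers summed to 5196 to 9159 in CD151KO, 7856 to 10494 in CD9KO and 5939 to 7178 in wild type, so CD9KO did not overlap wild type, and 1 of the 6 rose in CD9KO against wild type. The part of either set of markers in the difference of Klf6 was not tested.

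**Figure D5:**
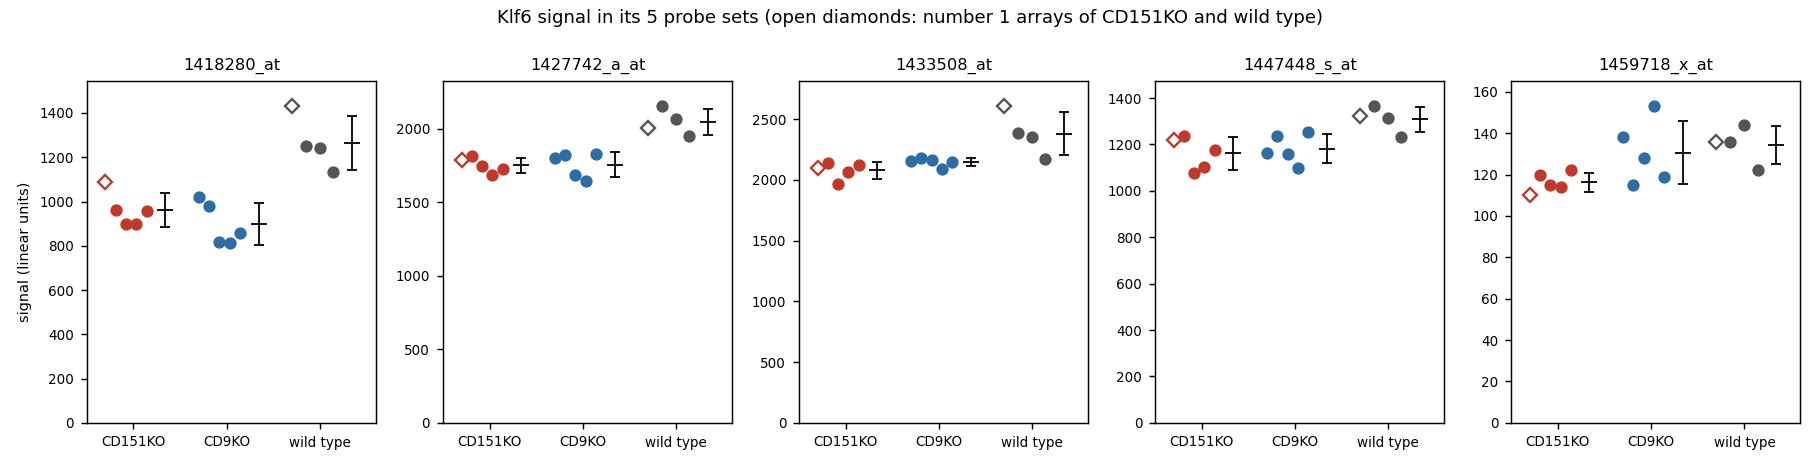
Signal (linear units) of the 5 probe sets of Klf6 on each array by group. Circles are arrays, open diamonds the number 1 arrays of CD151KO and wild type, and black bars the mean ± SD (n = 5, 5 and 4). In 1418280_at and 1427742_a_at all 10 knockout arrays lie below all 4 wild type arrays.

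Of 80 tested genes in 5 lists of the wider immediate early pathway, 0 passed in CD151KO against wild type, where 0.778% of all genes did, and 1 (1.25%) passed in CD9KO against wild type, where 5.51% did. Of 11 AP-1 partners tested (12 listed), such as Fosl2 and Jund, 0 passed in any of the 3 comparisons, and Fosl2 had log2 differences of -0.23 in CD151KO and -0.21 in CD9KO against wild type (limma adjusted p = 0.294 and 0.144). Of 17 upstream kinases and factors tested (22 listed), 0 passed against wild type. Srf, the factor bound at many of these promoters, averaged 381 ± 36.5 in CD151KO, 378 ± 24.9 in CD9KO and 451 ± 48.3 in wild type (limma adjusted p = 0.257 and 0.0770 against wild type). Of 14 early effectors and targets tested (19 listed) 1 rose in CD9KO against wild type, the kinase gene Sgk1, with 3158 ± 352 against 2531 ± 209 (log2 0.31, SE 0.09, limma adjusted p = 0.0455), and that call held in only 12 of 27 alternatives (adjusted p up to 0.104 without wild type 1). Of 15 other early transcription factors and 23 feedback inhibitors, 0 passed in either comparison against wild type.

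Between the knockouts 7 of the 80 genes passed (8.75%), a share close to the 10.1% of all genes. Nr4a3, an orphan nuclear receptor of the same family as Nr4a1, fell 1.59-fold in CD151KO against CD9KO, with 316 ± 54.1 and 517 ± 110 (n = 5 each, log2 -0.67, limma adjusted p = 0.0111). It was the 1 of 15 other early transcription factors to pass. Its direction was not that of Nr4a1, which had 920 ± 552 in CD151KO and 509 ± 70.3 in CD9KO (log2 0.69, SE 0.35, limma adjusted p = 0.215). When each gene's probe sets were averaged, the difference of Nr4a3 was -0.22 and still passed. Of 23 feedback inhibitors 1 rose, the antiproliferative gene Btg1 (log2 0.19, limma adjusted p = 0.0184), and 2 fell, the NF-kappaB inhibitor gene Nfkbia (log2 -0.18, limma adjusted p = 0.0100) and Ppp1r15a, which codes for a phosphatase subunit of the stress response (log2 -0.15, limma adjusted p = 0.0498). Of 14 effectors and targets 2 fell, both matricellular: Ccn2, with 3127 ± 343 in CD151KO and 4196 ± 671 in CD9KO (log2 -0.41, limma adjusted p = 0.0214), and Thbs1, with 686 ± 33.5 and 943 ± 171 (log2 -0.43, limma adjusted p = 0.0297). Of the 17 upstream genes 1 fell, the coactivator Ep300 (log2 -0.15, limma adjusted p = 0.0496). Nr4a3 and Nfkbia passed in 27 of 27 alternatives, Btg1 in 26, Ccn2 in 24, Thbs1 in 21, Ep300 in 11 and Ppp1r15a in 9. Without the number 1 arrays Nr4a3 had a log2 difference of -0.64 (limma adjusted p = 0.0242), and the call of Ep300 ended (-0.12, limma adjusted p = 0.0557). Leaving out CD151KO 1 or CD9KO 4 or 5 ended the call of Ccn2 (adjusted p = 0.0579, 0.0518 and 0.0611), and leaving out CD151KO 2 or 3 or CD9KO 1, 4 or 5 that of Thbs1 (0.0676, 0.0517, 0.0652, 0.0717 and 0.0714). Of 11 heat shock genes, 0 passed in any comparison, with median log2 differences of 0.07 in CD151KO against wild type, 0.28 in CD9KO against wild type and -0.14 in CD151KO against CD9KO.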

How the data were processed

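RNA from lungs was measured on Affymetrix arrays, 1 per sample. The authors deposited linear intensities from 4.78 to 29667, described as normalized in the labels. The submitters' processing notes list the tools Affymetrix Expression Console and MAS5 without version or role. Of the probe sets, 5.15% gave the same value on more than 1 array, so the summary method is not settled, and low signals depend on it. Gene names came from GEO's annotation of the platform (34958 with 1 symbol, 932 with several, 9211 with none, 64 controls left out), and 34741 matched a gene table of GRCm38.p6.

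Where several probe sets shared a gene, the brightest by mean log2 signal stood for it. Genes below the 40th percentile of mean log2(signal + 16), 6.12 or a signal of 53.4, were left out (5208), and 12985 were tested. limma 3.58.1 (R 4.3.3) fitted 1 linear model with the 3 groups to the 14 arrays (eBayes with a trend, 11 residual degrees of freedom), each comparison two-sided with Benjamini-Hochberg adjustment over all genes. A second fit tested all 22951 probe sets above the filter. Groups came from the sample titles. The number of arrays limits precision, and folds on the log2(signal + 16) scale understate changes of low signals. The procedure was run on simulated data with independent noise for each gene and array. Shifts shared by many genes on an array were not simulated, so that run says nothing about them.

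The members, gene lists and tests were chosen with earlier results of these data known. Named genes were the members, Cd151 and Cd9, up to 3 genes of each pathway list by smallest unadjusted p in any comparison, and the 5 genes most correlated with the members' mean. Jund was named as an example of its list, with no value. The alternatives were other pseudocounts, normalizations, filters and probe set rules, other fits, and arrays left out; those for single Klf6 probe sets and list genes were added after seeing the data. Plots used matplotlib 3.10.9 under Python 3.11.15.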

Additional observations from a re-analysis of the deposited data

Results flagged for a closer look

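Values on the number 1 arrays stood out within their groups in 4 cases, by a comparison of the gap to the nearest array with the group's whole range on the log2 scale. In CD151KO the number 1 array was the highest for Jun in its second probe set, 1448694_at (gap 0.908 of the range), for Junb (0.804) and for Egr1 (0.771), above the critical value of 0.71 for 5 arrays. In wild type the number 1 array was the highest for the same probe set of Jun (0.848, critical value 0.829 for 4 arrays). In all, 51 groups of values were examined, 17 probe sets in 3 groups, and chance marks about 1 in 20. The 4 cases are not far from that share. All 4 lay on these 2 arrays, which were known beforehand to stand apart over many genes. Where the cases fell is therefore no separate evidence about the members.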

How the results depend on the processing

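The 4 to 5 arrays per group limit what could be detected. The count of members passing was 0 in each comparison and the counts of genes passing were 101 (CD151KO against wild type), 715 (CD9KO against wild type) and 1313 (CD151KO against CD9KO). For CD151KO against wild type 1 member passed, Klf6, with quantile normalization, with each gene's probe sets averaged, with every probe set tested and with array weights, and 0 to 1 with single arrays left out. For CD9KO against wild type 1 passed with quantile normalization or centring on array medians (Egr3), and with probe sets averaged or every probe set tested (Klf6). With single arrays left out 0 to 2 passed. Between the knockouts 1 passed with only the compared groups, with array weights and without both number 1 arrays (Egr3), and 0 to 1 with single arrays left out. Deviations from the group means of same-numbered arrays correlated at 0.595, -0.103, 0.438 and 0.265 between CD151KO and wild type (numbers 1, 3, 4 and 5), at -0.031 to 0.18 between CD9KO and wild type and at -0.098 to 0.211 between the knockouts. Number 4 was its own best match in all 3 pairs of groups. So was number 1 between CD151KO and wild type, and number 5 between CD9KO and wild type. Not every pair exceeded 0.1 and the labels tie no numbers together, so the numbers were taken as names. Whether some same-numbered arrays shared a batch or handling was not tested. With the replicate block 3 passed in CD9KO against wild type (Atf3, Ier2 and Klf6, limma adjusted p = 0.015, 0.0345 and 0.044) and 1 between the knockouts (Ier2), and 1591 genes in CD9KO against wild type.

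Genes passing in CD151KO against wild type were 39 with only the compared groups, 335 with array weights, 45 without both number 1 arrays and 24 to 98 with single arrays left out. In CD9KO against wild type they were 1090 with array weights and 405 without both number 1 arrays. With single arrays left out they were 155 to 867 there and 686 to 1941 between the knockouts. With every probe set tested, 1555 of 22951 probe sets passed in CD9KO against wild type, 6.78% where 5.51% of genes passed. The members' median difference between the knockouts was -0.019 to 0.256 with single arrays left out, highest without CD9KO 1, where the other probe set stood for Egr3.

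Of 27 differences of members, 14 took the other sign in some alternative, and 0 of these 50 values passed. With a pseudocount of 64 Egr3, then represented by its other probe set, had -0.358, -0.616 and 0.258 in CD151KO against wild type, CD9KO against wild type and CD151KO against CD9KO, and with probe sets averaged -0.220, -0.341 and 0.122. Averaging gave Egr2 0.0186 in CD151KO against wild type and 0.0238 between the knockouts. Array weights gave Egr3 -0.0203 in CD151KO against wild type and Junb -0.0612 between the knockouts. Without both number 1 arrays Egr3 had -0.0272 in CD151KO against wild type, Junb 0.0089 in CD9KO against wild type and -0.115 between the knockouts, and Egr2 0.0433 between the knockouts. With single arrays left out the ranges that crossed 0 were, in CD151KO against wild type, -0.0807 to 0.0308 for Jun, -0.159 to 0.034 for Junb, -0.485 to 0.302 for Egr1, -0.475 to 0.0631 for Egr3, -0.164 to 0.0689 for Ier2, -0.159 to 0.007 for Egr2; in CD9KO against wild type, -0.0929 to 0.0089 for Junb, -0.0992 to 0.0242 for Egr2, -0.126 to 0.206 for Fos, -0.846 to 0.214 for Egr3; in CD151KO against CD9KO, -0.115 to 0.0771 for Junb, -0.111 to 0.0433 for Egr2, -0.104 to 0.0071 for Jun, -0.165 to 0.371 for Egr3. Without CD9KO 1 or CD9KO 3 the other probe set of Egr3, 1436329_at, stood for the gene. The ranges of Egr3 therefore mix both probe sets, and their ends at -0.475, -0.846 and 0.371 came from 1436329_at. The causes of the other changes were not tested.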
